A study of Mus musculus with 6 samples.

Results

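The enzymes that build, remodel and degrade glycerophospholipids and ether lipids were followed in liver cells sorted as NK cells with or without CD36. CD36 is the scavenger receptor through which cells take up long-chain fatty acids. Members were the genes that carried the KEGG entry for glycerophospholipid metabolism (mmu00564) or ether lipid metabolism (mmu00565), did not also carry the lysosome entry (mmu04142), and had at least 10 counts summed over the 6 libraries. Of 57180 genes in the table, 112 carried either entry, 1 of them (Pla2g15) was set aside for its lysosome entry and 18 fell under the count minimum, which left 93 members. The first entry alone marked 56 members, the second alone marked 14, and 23 carried both. The member nearest to the count minimum was Gal3st1 with 11 counts, and the nearest gene under it was Gpat2 with 8.

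The libraries came from CD3- NK1.1+ cells of C57BL/6J male mice, aged 6 to 8 weeks, all made fibrotic with the liver toxin carbon tetrachloride (CCl4). Collection took place 48 h after a course of 4 weeks had ended, in which 2 doses were given each week, each dose being 2.5 ml/kg of olive oil with 20% CCl4. CD36+ NK and CD36- NK cells gave 3 libraries each, both groups came from CCl4-treated mice, and no library of an untreated mouse is among the 6. Neither the labels nor the study's methods say whether the libraries of a group came from separate animals, so p-values measure the spread between these samples, which may be technical.

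Glycerophospholipid synthesis starts from glycerol phosphate, which is acylated to lysophosphatidic acid and then to phosphatidic acid. Phosphatidic acid either loses its phosphate to give diacylglycerol, the precursor of phosphatidylcholine and phosphatidylethanolamine, or is activated with CTP on the way to phosphatidylinositol and cardiolipin. Phospholipases release fatty acids and lysophospholipids, which acyltransferases put back together, and ether lipids such as platelet-activating factor (PAF) carry an alkyl chain in place of a fatty acid.

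Total counts ran from 10292480 to 13787189 per library. Cd36 stood at 110, 263 and 238 CPM (counts scaled to the library's size) in CD36+ NK replicates 1 to 3, and 14.3, 31.7 and 17.1 in the CD36- NK libraries, which gave a log2 fold change of 3.27 ± 0.43 (SE). Its adjusted p in edgeR's quasi-likelihood test was 0.00615 (Benjamini-Hochberg over all genes tested), and it passed in 16 of 16 alternative fits. Markers of the sorted cells differed between the groups. All 12 NK lineage genes on the marker list were called lower in CD36+ NK (median -2.45 on the log2 scale), and their summed level was 1200 to 1467 CPM there against 6302 to 8230 in CD36- NK. Macrophage and Kupffer cell genes had a summed level from 6736 to 9368 CPM in CD36+ NK, above the 2472 to 5812 CPM of CD36- NK. Of the 10 tested genes of that list 4 were called higher, and the median was 2.89 on the log2 scale. Lyz2, whose groups overlapped, was the largest single part of each sum. B cell genes summed to 4254 to 4736 CPM against 2833 to 3221, erythroid genes to 297 to 665 against 65.2 to 143, and endothelial genes to 212 to 306 against 153 to 169. The dendritic cell list had the lower sum in CD36+ NK, 291 to 354 CPM against 469 to 653, but most of it was Itgax. Itgax alone stood at 197, 250 and 255 CPM against 415, 513 and 611.5 and was called lower. Xcr1 and Clec9a were called higher, and the median log2 fold change of the list was 0.26. Monocyte genes overlapped, at 1184 to 2914 CPM against 1409 to 2642, with Cd14 called higher and Ccr2 lower. Hepatocyte genes, none of which had enough counts to be tested, summed to 1.58 to 10.2 CPM against 0.0884 to 0.692, and stellate cell genes to 2.94 to 5.24 CPM against 0.488 to 0.846, low levels that did not overlap. Pdgfrb, the 1 stellate cell gene tested, was called higher. CD36+ NK replicate 1 held 296.5 CPM of T cell genes, where the other libraries held 27.25 to 46.6, although the gate was CD3-. Of the 7 genes of that list Cd4 and Cd8a were called higher, without overlap: Cd4 stood at 51.4, 11.3 and 23.9 CPM in CD36+ NK and 4.69, 7.78 and 4.59 in CD36- NK, and Cd8a at 63.2, 8.98 and 16.5 CPM against 2.92, 4.24 and 2.64. In every CD36+ NK library the NK lineage sum lay below the macrophage and Kupffer cell sum and below the B cell sum. In every CD36- NK library it lay above both. The lists hold different genes, so their sums do not give shares of cells. In bulk samples such as these, fewer cells of a type and less RNA per cell cannot be told apart. Nor can the transcripts of a member be assigned to NK cells or to other cells of a library.

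Of the 93 members, 81 had enough counts to be tested, and 13 of these (16.0%) were called, against 5.96% of all 14761 genes tested. A call required a Benjamini-Hochberg adjusted p below 0.05 in edgeR's quasi-likelihood test and a fold change above 2. Higher in CD36+ NK were 11 members (13.6%), against 2.98% of all genes in that direction. Lower were 2 members, Lpin1 and Etnk2 (2.47%), against 2.98% of all genes. The higher members were Gdpd1, Enpp2, Pla2g2d, Gpd1, Plpp1, Plpp3, Lpcat2, Pla2g4a, Pla2g7, Agpat4 and Pld4. The called members lie on chromosomes 1 (Etnk2 and Pla2g4a), 4 (Plpp3 and Pla2g2d), 8 (Lpcat2), 11 (Gdpd1), 12 (Lpin1 and Pld4), 13 (Plpp1), 15 (Gpd1 and Enpp2) and 17 (Pla2g7 and Agpat4). At an adjusted p below 0.05 with any fold change, the count was 17 members (21.0%) against 10.5% of all genes, and the 4 that failed only the fold limit were Lpcat4, Plaat3, Lpcat1 and Pnpla7. The libraries of the 2 groups did not overlap for 34 members (42.0%), against 32.8% of all genes, with 22 of them higher and 12 lower in CD36+ NK.

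**Figure D1:**
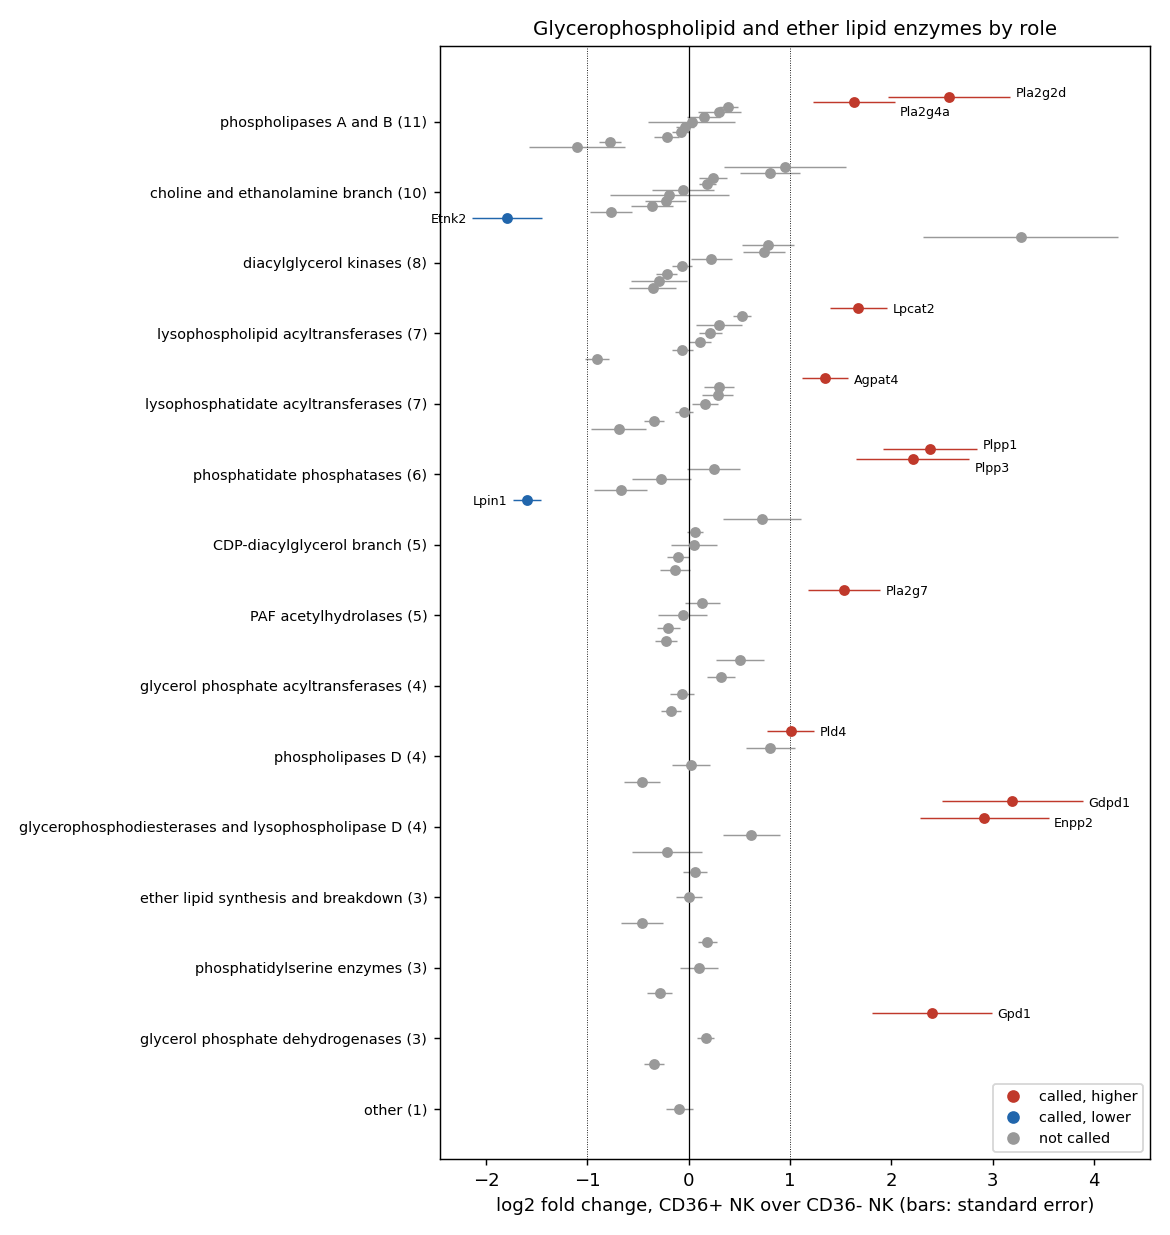
Log2 fold change of CD36+ NK over CD36- NK (x axis, points with standard error bars, 3 libraries per group) for the 81 tested members, by the role of the enzyme (rows, number of tested members in parentheses). Dotted lines mark a fold change of 2; the 11 members called higher lie in 8 roles, the 2 called lower in 2, and most grey points, not called, lie near 0.

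Most members had a small fold change, but the share that did was smaller than among all genes. The median log2 fold change of the tested members was 0.06, against 0.01 for all genes, and 52 members (64.2%) lay within 0.5 of 0 on the log2 scale, against 74.7% of all genes. Beyond that window, 21 members were on the positive side and 8 on the negative side. Of the tested members that carried only the glycerophospholipid entry, 4 of 50 were called, with 3 of 11 of those that carried only the ether lipid entry and 6 of 20 of those that carried both, where 5.96% of all genes were called. The differences between these entries were not tested.

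The number of calls rested on single libraries. Lpin1 alone was called when CD36+ NK replicate 2, or CD36- NK replicate 1, was left out; without CD36+ NK replicate 3 the calls were 2 and without CD36- NK replicate 3 they were 4, and they were 14 when CD36+ NK replicate 1, or CD36- NK replicate 2, was the library left out. The count over all genes moved as well, from 880 to between 417 and 451 in the fits without those 4 libraries. The library names have a lower-case form for replicate 1 of each group and an upper-case form for replicates 2 and 3. With this form as a block 912 genes were called in all. Of the 13 members 10 were called, and Pla2g7, Pla2g4a and Pld4 were not. Their log2 fold changes were about as large as without the block, at 1.52 for Pla2g7 (adjusted p = 0.0571 in edgeR's test), 1.59 for Pla2g4a (0.0589) and 0.983 for Pld4, which had an adjusted p of 0.0465 and missed the fold limit. Because the groups did not overlap for any of the 13, each was bound to have the same direction within both forms. The log2 ratios were -1.53 in the replicate 1 pair and -1.63 in replicates 2 and 3 for Lpin1. They were 1.17 and 1.87 for Lpcat2, 0.733 and 1.60 for Agpat4, and 0.595 and 1.18 for Pld4.

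Lpin1 encodes lipin 1, the phosphatidate phosphatase that makes diacylglycerol and also acts in the nucleus as a transcriptional coregulator. It stood at 49.7, 52.7 and 56.8 CPM in CD36+ NK replicates 1 to 3 and at 144, 145 and 193 CPM in CD36- NK. The 3 CD36+ NK libraries lay close together, and the lowest CD36- NK library was far above all of them. The log2 fold change was -1.60 ± 0.14 (SE), with an adjusted p of 0.00144 in edgeR's quasi-likelihood test. Lpin1 was the member called in 16 of 16 alternative fits, where its log2 fold change ran from -1.68 to -1.45. Lpcat2, an acyltransferase that remakes phosphatidylcholine and also makes PAF in inflammatory cells, came next with 13 of 16, and Agpat4, which turns lysophosphatidic acid into phosphatidic acid, with 12 of 16.

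Lpin1, Lpcat2 and Agpat4 were called in the most alternative fits, and their upstream sequence is shown for that reason. Each stretch is the 120 bases that end just before the RefSeq transcription start, read 5′ to 3′ on the gene's strand in GRCm38.p6, at chr12:16610967-16611086 (minus strand) for Lpin1, chr8:92855213-92855332 (plus strand) for Lpcat2 and chr17:12119164-12119283 (plus strand) for Agpat4. Capitals mark AGGAAGT or its reverse complement, a string that contains the GGAA core bound by ETS factors.
Lpin1: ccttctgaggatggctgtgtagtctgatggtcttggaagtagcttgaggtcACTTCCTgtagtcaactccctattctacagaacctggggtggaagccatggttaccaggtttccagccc
Lpcat2: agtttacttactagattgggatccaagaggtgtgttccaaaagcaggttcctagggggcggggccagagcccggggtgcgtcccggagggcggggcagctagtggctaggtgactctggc
Agpat4: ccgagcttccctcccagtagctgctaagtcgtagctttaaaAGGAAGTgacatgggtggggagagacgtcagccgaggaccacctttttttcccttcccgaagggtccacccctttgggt
The string lay in the Lpin1 stretch on the reverse strand and in the Agpat4 stretch on the forward strand, so a gene called lower and a gene called higher both held it. Promoters of 77 members were in the RefSeq table, 114 promoters in all, each with 250 bases before and 50 after the start. AGGAAGT on either strand was in 13 of the 114 (11.4%) and in 9.35% of all 32851 promoters. Counted by gene, 10 of the 77 members held it, among them 4 of the 10 called members with a promoter (Agpat4, Lpin1, Pla2g4a and Pld4). A share by gene was not taken over all genes, and the 9.35% counts promoters, so the counts by gene have no background. The longer GAGGAAGT, the core of the PU.1 site, which contains AGGAAGT and overlaps it, was in 4.39% of member promoters and 3.2% of all. The T-box string AGGTGTGA was in 0 of 114 and in 1.28% of all, and TATAAA in 3.51% and 13.6%. All strings were searched on both strands, and a match is a description of these letters only.

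Phosphatidate phosphatases were the role with calls in opposite directions. Plpp1 and Plpp3 encode membrane-bound lipid phosphate phosphatases, which remove phosphate from lysophosphatidic acid and related lipids outside the cell. Plpp3 stood at 18.8, 36.8 and 66.5 CPM in CD36+ NK and at 5.54, 15.1 and 5.76 in CD36- NK, so that the groups were separated by the gap between CD36- NK replicate 2 and CD36+ NK replicate 1. Its log2 fold change was 2.21 ± 0.56 (SE), at an adjusted p of 0.0499 in edgeR's test, just inside the threshold, and it was called in 7 of 16 alternative fits, with a log2 fold change of 2.84 when CD36- NK replicate 2 was left out. Plpp1 stood at 12.4, 14.1 and 21.1 CPM against 2.84, 5.04 and 1.17, with a log2 fold change of 2.38 ± 0.46 (SE) and an adjusted p of 0.0231 in the same test. Every CD36+ NK library lay above every CD36- NK library for Plpp1, which was called in 11 of 16 alternative fits. Plpp1 overlaps Mtrex, a gene on the opposite strand with 5526 counts to its own 690, so its counts are uncertain where reads were counted without strand. The remaining lipid phosphatases were not called: the log2 fold change was -0.27 ± 0.29 (SE) for Lpin2, -0.67 ± 0.26 for Plpp2 and 0.25 ± 0.26 for Plpp5.

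Because FPKM divides by gene length, levels of different genes can be set side by side on that scale. Of the summed FPKM of the lipins and Plpp genes, Lpin1 made up 49.0%, 34.5% and 47.3% in CD36- NK replicates 1 to 3 and 14.6%, 10.8% and 8.91% in CD36+ NK. Plpp3 made up 28.1%, 38.4% and 53.2% in CD36+ NK and 9.63%, 18.3% and 7.19% in CD36- NK. Lpin1 was thus the most abundant of these transcripts in every CD36- NK library and Plpp3 in every CD36+ NK library. The summed FPKM of the role differed less, at 21.4, 29.9 and 37.8 in CD36+ NK and 18.4, 26.9 and 25.2 in CD36- NK, ranges that overlap. Shares within a family are descriptions and were not tested.

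**Figure D2:**
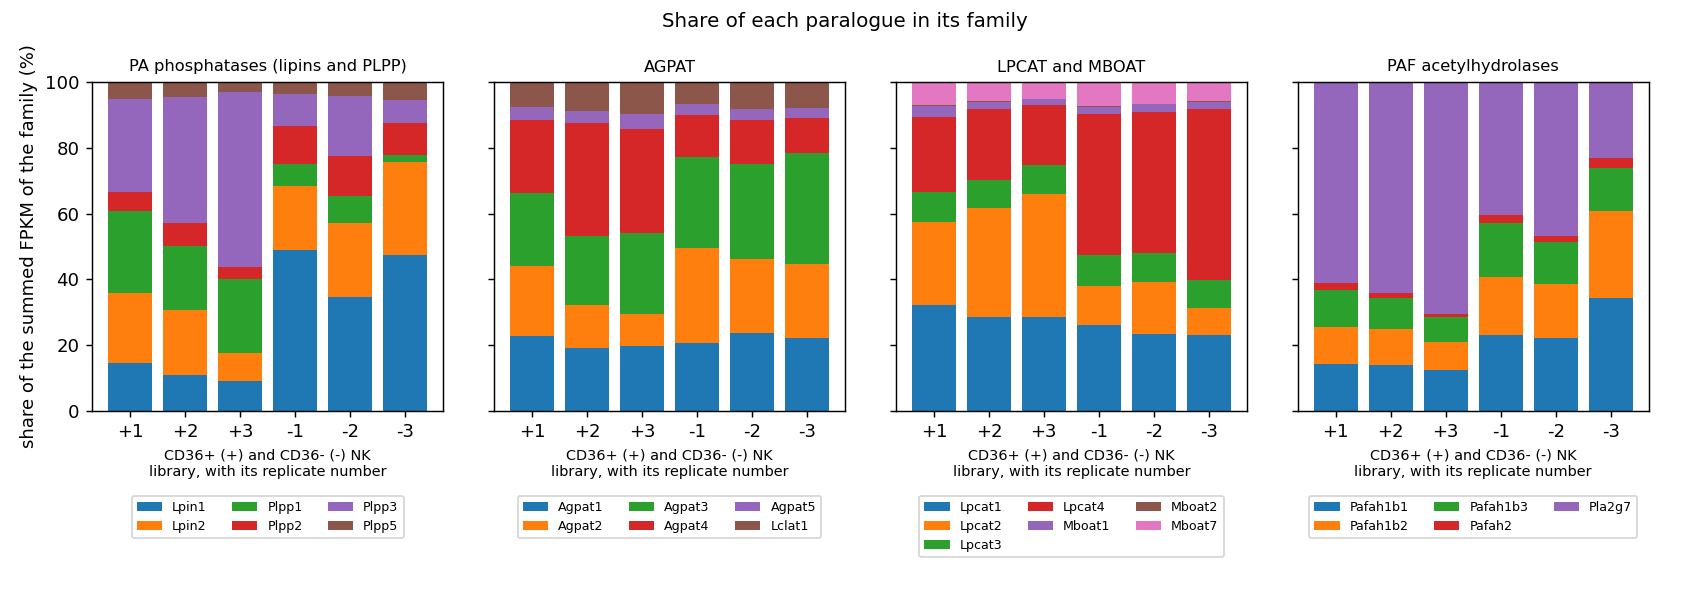
Share of each gene in the summed FPKM of its family (y axis, %) in each library (x axis, + for CD36+ NK and - for CD36- NK, with the replicate number), in 4 families. Lpin1 fills 34.5% to 49.0% of the first family's bars in CD36- NK, but 8.91% to 14.6% in CD36+ NK, and Lpcat4 and Lpcat2 change places in the third.

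Among the lysophospholipid acyltransferases, which reattach a fatty acid to a lysophospholipid, 1 of 7 tested members was called. Lpcat2 stood at 60.8, 93.1 and 109 CPM in CD36+ NK replicates 1 to 3 and at 27.0, 35.99 and 19.2 CPM in CD36- NK. CD36+ NK replicate 1 was the lowest of its group and still lay above all CD36- NK libraries. The log2 fold change was 1.67 ± 0.28 (SE), at an adjusted p of 0.0142 in edgeR's quasi-likelihood test. Lpcat4, an acyltransferase of lysophosphatidylcholine and lysophosphatidylethanolamine, went the other way, with 45.2, 49.2 and 43.8 CPM against 81.0, 79.2 and 99.2. Its groups were far apart for their spread, with a log2 fold change of -0.91 ± 0.12 (SE) and an adjusted p of 0.00572, but the fold stayed under 2. Lpcat1, known for making surfactant phosphatidylcholine in the lung, stood at 113, 118 and 123 CPM against 88.7, 76.9 and 79.5, a log2 fold change of 0.53 ± 0.09 (SE) at an adjusted p of 0.0147, also under the fold limit.

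Within this family Lpcat4 made up 42.9%, 43.1% and 52.1% of the summed FPKM in CD36- NK and 23.1%, 21.4% and 18.5% in CD36+ NK, while Lpcat2 made up 11.7%, 16.0% and 8.24% in CD36- NK and 25.4%, 33.1% and 37.4% in CD36+ NK. The order of these transcripts was therefore reversed between the groups in every library. The other tested members were not called: the log2 fold change was 0.21 ± 0.11 (SE) for Lpcat3, which favours polyunsaturated chains, 0.11 ± 0.11 for Mboat7, which acylates lysophosphatidylinositol, 0.30 ± 0.23 for Mboat1 and -0.06 ± 0.10 for Taz, the cardiolipin remodelling enzyme tafazzin.

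Among the lysophosphatidate acyltransferases, 1 of 7 tested members was called. Agpat4 stood at 34.6, 60.9 and 52.3 CPM in CD36+ NK and at 20.8, 21.3 and 15.9 CPM in CD36- NK. The CD36- NK libraries lay close together, below all CD36+ NK libraries. The log2 fold change was 1.35 ± 0.23 (SE), at an adjusted p of 0.0142 in edgeR's test. Agpat4 made up 22.2%, 34.6% and 31.7% of the summed FPKM of the Agpat family in CD36+ NK and 12.7%, 13.5% and 10.5% in CD36- NK. The shares of Agpat2 and Agpat3 were lower in CD36+ NK than in CD36- NK without overlap, at 14.8% ± 6.0 against 24.7% ± 3.6 (SD, n = 3) and 22.6% ± 1.9 against 30.1% ± 3.4. Neither gene was called, with log2 fold changes of -0.69 ± 0.27 (SE) for Agpat2 and -0.34 ± 0.10 for Agpat3. Leaving out CD36+ NK replicate 1 brought the lower calls to 3 by adding Agpat2, at a log2 fold change of -1.0 and an adjusted p of 0.0422 in edgeR's test, where the alternative fits ran from 0.0422 to 0.345. Lpgat1, the member of this role with the highest FPKM, had a log2 fold change of 0.16 ± 0.13 (SE). Agpat1, Agpat5 and Lclat1 had log2 fold changes of -0.05, 0.29 and 0.30, and the summed FPKM of the role was 59.5 ± 4.1 in CD36+ NK and 57.4 ± 2.4 in CD36- NK (SD, n = 3).

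The earliest steps were called at 1 enzyme. Gpd1, the cytosolic dehydrogenase that makes glycerol phosphate from a glycolytic intermediate, stood at 11.1, 14.1 and 31.4 CPM in CD36+ NK and at 2.15, 6.72 and 1.86 CPM in CD36- NK. CD36+ NK replicate 3 was more than double the other CD36+ NK libraries, and the groups did not overlap. The log2 fold change was 2.40 ± 0.59 (SE), at an adjusted p of 0.0461 in edgeR's quasi-likelihood test, and the gene was called in 9 of 16 alternative fits. Its log2 fold change was 3.22 without CD36- NK replicate 2 and 1.82 without CD36+ NK replicate 3. Its paralogue Gpd1l was the most abundant of this role by FPKM and had a log2 fold change of 0.17 ± 0.08 (SE), and mitochondrial Gpd2 one of -0.34 ± 0.10, neither called. The glycerol phosphate acyltransferases, which take the next step, were not called. Gnpat, the peroxisomal enzyme that opens ether lipid synthesis and the most abundant of them by FPKM, had a log2 fold change of -0.07 ± 0.12 (SE), and Gpam, Gpat3 and Gpat4 had 0.32 ± 0.14, 0.51 ± 0.24 and -0.18 ± 0.10.

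Phospholipases A and B held 2 calls among 11 tested members. Pla2g4a encodes the cytosolic phospholipase that frees arachidonic acid for prostaglandin and leukotriene synthesis. It stood at 18.0, 21.8 and 37.1 CPM in CD36+ NK and at 7.92, 12.4 and 4.49 CPM in CD36- NK, which gave a log2 fold change of 1.63 ± 0.40 (SE) at an adjusted p of 0.0471 in edgeR's test. Pla2g2d encodes a secreted phospholipase known from lymphoid tissue. It stood at 9.44, 9.27 and 22.3 CPM against 1.46, 4.42 and 0.977, a log2 fold change of 2.57 ± 0.60 (SE) at an adjusted p of 0.0396. For both genes CD36+ NK replicate 3 was the highest library, CD36- NK replicate 2 was the highest of its group, and the groups did not overlap. They were called in 8 and 9 of 16 alternative fits, and the log2 fold change of Pla2g2d ran from 2.03 to 3.45 over these fits, the highest without CD36- NK replicate 2.

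Plaat3, a phospholipase and acyltransferase of membrane phospholipids, stood at 34.3, 35.0 and 40.2 CPM in CD36+ NK and at 63.9, 57.0 and 66.9 in CD36- NK. The log2 fold change was -0.78 ± 0.11 (SE) at an adjusted p of 0.00736 in edgeR's test, under the fold limit. Pnpla7, a lysophospholipase of the patatin-like family, had 94.5, 86.5 and 94.5 CPM against 68.0, 75.9 and 66.2, a log2 fold change of 0.39 ± 0.09 (SE) at an adjusted p of 0.0396. Neither gene had overlapping groups. Lypla2, the lysophospholipase with the highest FPKM of this role, had a log2 fold change of -0.08 ± 0.09 (SE) and was not called, and the summed FPKM of the role was 72.0 ± 3.0 in CD36+ NK and 71.9 ± 2.7 in CD36- NK (SD, n = 3).

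Of the PAF acetylhydrolases, which inactivate PAF by removing its acetyl group, 1 of 5 was called. Pla2g7, the secreted plasma form known from macrophages, stood at 143, 174 and 222 CPM in CD36+ NK replicates 1 to 3 and at 67.6, 87.4 and 31.4 CPM in CD36- NK. The groups did not overlap, and the log2 fold change was 1.53 ± 0.36 (SE) at an adjusted p of 0.0387 in edgeR's quasi-likelihood test. Pla2g7 was called in 9 of 16 alternative fits and in 3 of the 6 that left out a library. The intracellular forms were not called, with log2 fold changes of -0.20 ± 0.11 (SE) for Pafah1b1, -0.23 ± 0.11 for Pafah1b2, 0.13 ± 0.17 for Pafah1b3 and -0.06 ± 0.24 for Pafah2. Pla2g7 made up 61.2% to 70.6% of the summed FPKM of the family in CD36+ NK, where CD36- NK had 22.9% to 46.9%.

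The enzymes that cut a head group from glycerophosphodiesters or lysophospholipids held 2 calls among 4 tested members, the largest fold changes of the called members. Enpp2 encodes autotaxin, the secreted lysophospholipase D that makes lysophosphatidic acid outside the cell. It had 23, 60 and 114 counts in CD36+ NK and 7, 12 and 5 in CD36- NK, or 2.05, 4.42 and 9.48 CPM against 0.538, 1.06 and 0.488. The level was low, the groups did not overlap, and the log2 fold change was 2.92 ± 0.64 (SE) at an adjusted p of 0.0327 in edgeR's test. Enpp2 was called in 8 of the 15 alternative fits that tested it and in 2 of the 6 that left out a library, and its log2 fold change fell to 2.21 without CD36+ NK replicate 3. Gdpd1, an intracellular lysophospholipase D, had 79, 83 and 156 counts against 2, 23 and 7, a log2 fold change of 3.19 ± 0.70 (SE) at an adjusted p of 0.0328, and was called in 9 of the 15 alternative fits that tested it. CD36- NK replicate 1 held only 2 counts of Gdpd1, and its fold change ran from 2.64 to 4.42 on the log2 scale over the alternative fits, the highest without CD36- NK replicate 2. Gpcpd1, which hydrolyses glycerophosphocholine and had the highest FPKM of this role, stood at 122, 175 and 256 CPM against 151, 108 and 102, so the groups overlapped, and its log2 fold change of 0.62 ± 0.28 (SE) was not called.

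Phospholipases D held the most abundant transcript of all members. Pld4, which despite its name is known as an endolysosomal nuclease, had a mean FPKM of 92.0 over the 6 libraries, against a median of 4.60 for the tested members. It stood at 433, 626 and 643 CPM in CD36+ NK and at 286, 354 and 207 CPM in CD36- NK, without overlap. The fold change of 1.005 ± 0.230 (SE) on the log2 scale lay just inside the fold limit, at an adjusted p of 0.0373 in edgeR's test, and Pld4 was called in 8 of 16 alternative fits. Its relative Pld3 had 163, 149 and 281 CPM against 117, 122 and 101, a log2 fold change of 0.80 ± 0.24 (SE) that was not called (adjusted p = 0.0790). The enzymes that release phosphatidic acid from phosphatidylcholine, Pld1 and Pld2, had log2 fold changes of -0.46 ± 0.18 (SE) and 0.03 ± 0.19, neither called.

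In the choline and ethanolamine branch, 1 of 10 tested members was called. Etnk2, an ethanolamine kinase, had 9, 9 and 8 counts in CD36+ NK and 44, 21 and 22 in CD36- NK, or 0.801, 0.662 and 0.665 CPM against 3.38, 1.86 and 2.15. At these counts the groups still did not overlap, and the log2 fold change was -1.79 ± 0.35 (SE) at an adjusted p of 0.0223 in edgeR's test. Etnk2 was called in 10 of the 15 alternative fits that tested it and in 2 of the 6 that left out a library. Its paralogue Etnk1, with the highest FPKM of the branch, stood at 324, 429 and 390 CPM against 281, 353 and 334, groups that overlap, with a log2 fold change of 0.24 ± 0.14 (SE).

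No member was called among the diacylglycerol kinases, the CDP-diacylglycerol branch, the phosphatidylserine enzymes, the ether lipid enzymes, the glycerol phosphate acyltransferases and the unplaced Adprm, 24 tested members in all. In edgeR's quasi-likelihood test 3 of the 24 had an unadjusted p below 0.05 (Dgkg, Dgkh and Dgki), DESeq2 and limma voom called 0 and edgeR's exact test called Dgki. Dgki, a diacylglycerol kinase, stood at 4.63, 5.52 and 17.3 CPM in CD36+ NK and at 0.154, 2.48 and 0.195 CPM in CD36- NK. Its log2 fold change of 3.27 ± 0.96 (SE) exceeded that of every called member, but CD36+ NK replicate 3 stood apart from its group and the adjusted p was 0.0751 in edgeR's quasi-likelihood test. Without CD36- NK replicate 2 its log2 fold change was 5.64 and it was called (adjusted p = 0.0157), and without CD36+ NK replicate 3 it was 2.43. Its adjusted p ran from 0.0157 to 0.225 over the alternative fits. Dgkg and Dgkh had log2 fold changes of 0.78 ± 0.26 (SE) and 0.74 ± 0.20. The abundant kinases Dgkd, Dgka and Dgkz, which turn diacylglycerol back into phosphatidic acid, had log2 fold changes of -0.07 ± 0.10 (SE), -0.36 ± 0.23 and -0.22 ± 0.11, and Dgke and Dgkq had -0.29 ± 0.28 and 0.22 ± 0.20.

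The most abundant members of the remaining roles by FPKM lay near 0. Cds2, which activates phosphatidic acid with CTP, had a log2 fold change of -0.11 ± 0.11 (SE). Agps, the peroxisomal enzyme that puts the alkyl chain into ether lipids, had 0.06 ± 0.12. Ptdss1, which makes phosphatidylserine from phosphatidylcholine, stood at 44.4, 45.6 and 46.3 CPM against 64.9, 52.7 and 48.7, groups that did not overlap, with a log2 fold change of -0.29 ± 0.12 and an adjusted p of 0.193 in edgeR's test. Adprm had -0.09 ± 0.14.

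**Figure D3:**
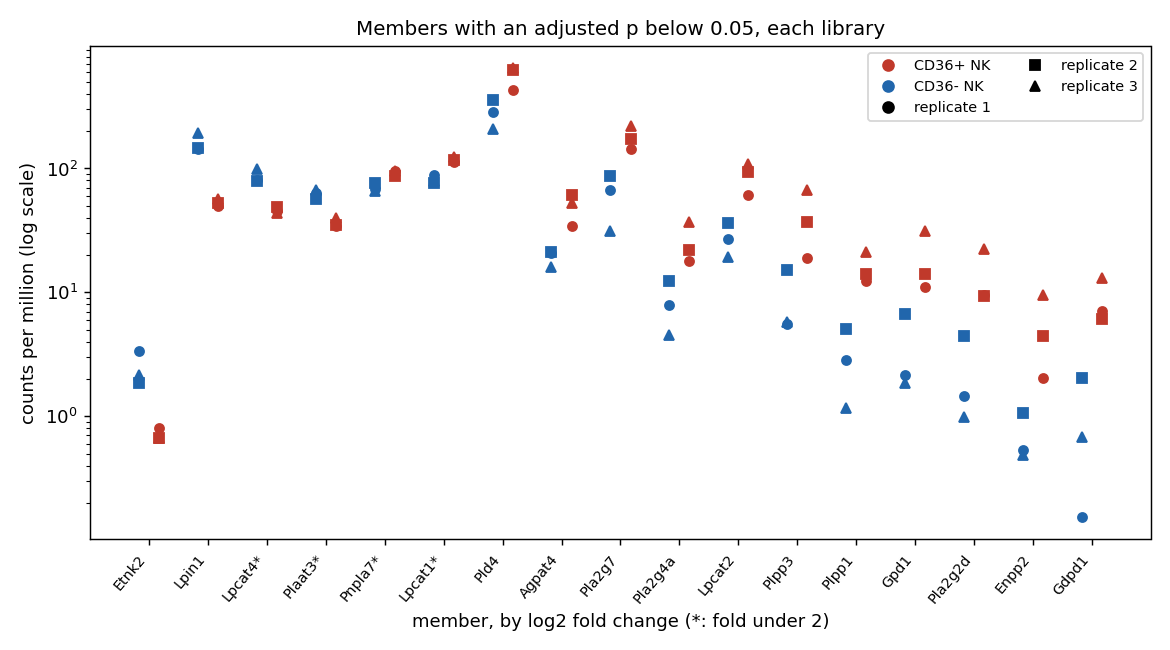
Level of the 17 members with an adjusted p below 0.05 (x axis, ordered by log2 fold change, asterisk for a fold under 2) in CPM on a log scale (y axis); each point is 1 library, coloured by group and shaped by replicate number. The groups do not overlap for any of the 17, and CD36+ NK replicate 3 is the top point for most members on the right.

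The 11 higher members shared an order of libraries. CD36+ NK replicate 3 was the highest of its group for 10 of them and CD36+ NK replicate 1 the lowest for 9. In CD36- NK, replicate 2 was the highest for 11 of 11 and replicate 3 the lowest for 9. How often the other genes called higher had this order was not counted. The summed macrophage and Kupffer cell list had the same order, with 6736, 7836 and 9368 CPM in CD36+ NK replicates 1 to 3 and 5377, 5812 and 2472 CPM in CD36- NK. The endothelial, dendritic and stellate cell sums also rose from replicate 1 to 3 in CD36+ NK, and those of the remaining lists did not. Of these rising sums only the endothelial one was also highest in replicate 2 of CD36- NK. The genes of that list differed among themselves. Lyz2, the lysozyme gene and the most abundant of them, stood at 4305, 4096 and 3486 CPM in CD36+ NK and 4747, 4330 and 2052 CPM in CD36- NK, so its groups overlapped and its CD36+ NK libraries had the opposite order (log2 fold change 0.09 ± 0.29 (SE), not called). Adgre1, Csf1r, Cd68 and Marco were called higher, and Adgre1, the F4/80 antigen, stood at 225, 348 and 581 CPM against 58.6, 135 and 35.7. C1qa, a complement component made by macrophages, stood at 245, 348 and 715 CPM against 22.8, 128 and 23.4 and was not called (adjusted p = 0.0576 in edgeR's test), nor were C1qb, C1qc, Cd5l and Timd4. The Kupffer cell genes Clec4f and Vsig4 had too few counts outside CD36+ NK replicate 2 to be tested. Clec4f had 17, 624 and 0 counts in CD36+ NK replicates 1 to 3 and 0 in all 3 CD36- NK libraries, and Vsig4 had 10, 181 and 6 counts against 0, 3 and 0. The part of these markers in the members' differences was not tested. Between the groups, Lpin1 and Etnk2 were lower where the NK lineage list was lower. Within CD36+ NK, Lpin1 was highest in replicate 3, where the list was lowest. Within CD36- NK, Lpin1 and the list were both highest in replicate 3, and Etnk2 in replicate 1. The part of that list was not tested either.

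Other enzymes of the same roles that carry neither KEGG entry gave 17 genes in the table, of which 13 were tested, with a median log2 fold change of 0.23. Tmem86a, a lysoplasmalogenase, was the 1 called higher, at 28.2, 35.5 and 51.0 CPM in CD36+ NK and 12.5, 18.9 and 9.08 in CD36- NK, with a log2 fold change of 1.501 ± 0.314 (SE) at an adjusted p of 0.0285 in edgeR's test. The other 12 were not called, so 1 of 13 was called where 5.96% of all genes were. Pla2g15, the lysosomal phospholipase set aside by the rule, stood at 72.4, 100.4 and 174 CPM against 24.9, 50.4 and 15.6, a log2 fold change of 1.93 ± 0.48 (SE) at an adjusted p of 0.0463.

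The 12 members left untested for low counts had 11 (Gal3st1) to 79 (Phospho1) counts over the 6 libraries. Without the filter on low counts edgeR's test called 0 of the 12, with 2 at an unadjusted p below 0.05 (Phospho1 and Pla2g4f), and DESeq2 also called 0, with 1 at an unadjusted p below 0.05 (Phospho1) and no adjusted p for 7. Pla2g4f, with 10, 14 and 9 counts in CD36+ NK and 1, 3 and 5 in CD36- NK, was the 1 whose groups did not overlap. The 12 were Ache, Pemt and Phospho1 of the choline and ethanolamine branch, Gal3st1 and Ugt8a of the ether lipid enzymes, Enpp6, the acyltransferases Lcat and Mboat2, and the phospholipases Pla1a, Pla2g3, Pla2g4f and Plb1. Pemt, which makes phosphatidylcholine by methylation and is known from hepatocytes, had 11, 7 and 5 counts in CD36+ NK and 15, 5 and 3 in CD36- NK.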

How the data were processed

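The authors sequenced RNA of 6 libraries, 3 of CD36+ NK and 3 of CD36- NK cells. The submitters' processing notes name Seqtk, HISAT2 2.0.4, StringTie and the build mRatBN7.2, a rat assembly, although the identifiers are mouse Ensembl genes, so the build behind the table is uncertain and none of its coordinates are given. The authors deposited counts per gene without normalization, with FPKM beside them. For 7439 genes with over 200 counts in every library, the deposited FPKM was proportional to the count over the library's total within 1% in 100% of genes. The lines of 2 genes were broken and were rejoined.

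Counts were tested with edgeR 4.0.16 in R 4.3.3 (TMM, filterByExpr with a minimum count of 10, quasi-likelihood test without a block, Benjamini-Hochberg over 14761 genes). Called genes passed an adjusted p of 0.05 with more than a 2-fold change, the study's thresholds. FPKM was used to compare levels of different genes (shares within families, sums over roles and the order of abundance), with no test. SE is the absolute log2 fold change over the square root of F. CPM uses TMM-scaled library sizes. The biological coefficient of variation was 20.3%, and replicates differed by more than counting noise (chi-square per degree of freedom 14.8 to 29.2). Named genes are all called members, the most abundant tested member of each role, the tested members of 8 paralogue families and Cd36. Other genes, and the searched strings, were chosen after their values or sequences had been seen. The members and lists were chosen with earlier results of these data known. Groups follow the sample titles, since the library names use the CD36 sign differently. Promoters came from RefSeq (GRCm38.p6). Alternatives used DESeq2 1.42.0, edgeR's exact test, limma 3.58.1 (voom), other scalings, filters and thresholds, blocks and each library left out.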

Additional observations from a re-analysis of the deposited data

How the results depend on the processing

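The number of calls depended on the fit. The direction of the 13 called members was the same in every alternative fit that tested them. These fits reuse the same libraries, whose groups did not overlap for the 13, so they could hardly change that direction. With no filter on low counts 8 members were called, 6 of them higher, and 756 genes in all. Where all 6 libraries had to hold 10 counts or more, Etnk2, Enpp2 and Gdpd1 were not tested. In that fit 10 members were called, 9 higher and 1 lower, and 716 genes in all. At any fold change 4 members were lower and 1552 genes were called in all, and at a fold above 1.5 the lower count was also 4. With the replicate block 4 members were called, 2 of them higher (Agpat4 and Lpcat2), and 560 genes in all. The deviations of same-numbered libraries from their group means correlated at 0.310 for replicate 1, 0.0515 for replicate 2 and -0.0837 for replicate 3, and 2 of 6 libraries correlated best with their own number, so the numbers of the titles were not taken to pair the samples. The library names carry other numbers, which were not examined. With a block for the form of the library name 10 members stayed called, and Pla2g7, Pla2g4a and Pld4 were not, with 912 genes called in all. Among the libraries with upper-case names, which are replicates 2 and 3, 2 members were called, 1 higher and 1 lower, and 433 genes in all. When each replicate was left out in turn, 1 to 14 members were called, 0 to 12 of them higher and 1 to 3 lower, and 417 to 1160 genes in all. The median log2 fold change of the tested members then ran from -0.00783, without CD36- NK replicate 1, to 0.101. Beside these, DESeq2, edgeR's exact test and upper-quartile scaling kept the 13 calls, and DESeq2's size factors and limma voom kept 11. Where 1 library was left out, the group of 2 is assumed to vary like the other. The causes were not tested. Etnk2, Enpp2 and Gdpd1 held few counts in their lower group, and the part of depth in their calls was not tested.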
